A study of Mus musculus with 16 samples.

Results

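The 10 genes described here encode the MHC class II presentation machinery of the mouse: *Ciita*, *Cd74*, *H2-Aa*, *H2-Ab1*, *H2-Eb1*, *H2-DMa*, *H2-DMb1*, *H2-DMb2*, *H2-Oa* and *H2-Ob*. They were chosen by name and found by symbol among the 50686 genes of the count tables, of which 29942 had at least 1 count. RNA was sequenced from 8 BCR-ABL1p185+ cell lines, which are bone marrow cells of C57BL/6N mice transformed with the BCR-ABL1 fusion oncogene of acute leukemia. The labels call 4 lines wildtype, which are taken to be the Cdk8fl/fl lines of the study, and 4 lines Cdk8 knockout, the Cdk8Δ/Δ Vav-Cre lines. *Vav-Cre* deletes the floxed gene in all blood cells, and since the control lines carry no Cre the deletion and the Cre cannot be told apart. Each line was cultured for 48 h with 0.01% DMSO and with 1 µM Senexin B, an inhibitor of the kinases CDK8 and CDK19, which gave 16 libraries in 4 groups of 4. Libraries of one genotype with the same replicate number are taken as the same line, and bulk RNA cannot tell fewer positive cells from less RNA per cell.

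MHC class II molecules present peptides from endosomes to CD4+ T cells, and are made of an α and a β chain. CIITA is the coactivator that switches the class II genes on. It binds no DNA itself but sits on RFX, CREB and NF-Y proteins, which occupy the X1, X2 and Y boxes of their promoters. CD74, the invariant chain, fills the groove of new class II molecules until it is cut away by endosomal proteases. H2-DM then exchanges its last fragment for peptide, and H2-O, made mainly in B cells, holds H2-DM back. Mouse pro-B and pre-B cells carry little class II at the surface, and the amount rises as B cells mature. In C57BL/6 mice the gene for the H2-E α chain is a pseudogene, so that the β chain encoded by *H2-Eb1* lacks its partner.

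Letters of the Y box, and in some of the genes of the X1 box, can be read in the promoters. RefSeq promoter sequences (GRCm38.p6) were at hand for 7 of the 10 genes and not for *Ciita*, *Cd74* and *H2-Ab1*. The stretches shown for 5 of them run from base -150 to base -31 before the RefSeq transcription start on chromosome 17, 5′ to 3′ on the gene's strand, with matches to the Y box letters ATTGG and to the X1 letters (AG, any 2 bases, AC, any 2 bases, ATG), on either strand, in capitals. They are printed because such boxes are known as the docking place of CIITA, and 2 of the 5 (*H2-Aa* and *H2-DMb2*) hold no X1 match.
H2-Aa (chr17:34287854-34287973, minus strand): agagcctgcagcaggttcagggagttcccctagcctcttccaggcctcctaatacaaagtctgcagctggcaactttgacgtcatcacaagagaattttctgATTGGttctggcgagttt
H2-Eb1 (chr17:34305717-34305836, plus strand): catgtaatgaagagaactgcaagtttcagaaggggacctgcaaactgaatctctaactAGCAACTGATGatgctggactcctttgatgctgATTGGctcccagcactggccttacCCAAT
H2-DMb2 (chr17:34145099-34145218, plus strand): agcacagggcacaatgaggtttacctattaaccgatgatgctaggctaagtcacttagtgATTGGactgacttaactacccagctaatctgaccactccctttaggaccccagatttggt
H2-Oa (chr17:34092229-34092348, plus strand): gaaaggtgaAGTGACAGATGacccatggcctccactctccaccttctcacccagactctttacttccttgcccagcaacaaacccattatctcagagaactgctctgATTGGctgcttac
H2-Ob (chr17:34238755-34238874, plus strand): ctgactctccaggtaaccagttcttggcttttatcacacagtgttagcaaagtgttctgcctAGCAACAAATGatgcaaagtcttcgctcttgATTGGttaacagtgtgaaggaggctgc

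Over the whole promoter window of the table, all 7 genes held ATTGG in at least 1 of their promoters, as did 37.4% of 32851 promoters. For *H2-DMa* the stretches of its 2 promoters start at bases 34122682 and 34125368, ahead of the start of the counted gene at 34135182. Its matches, or lack of them, therefore do not describe the sequence at that start. The *H2-DMb2* stretch starts at base 34145099, inside the counted gene, which runs from 34143307 to 34151553. It too does not describe the sequence ahead of the start of the counted gene. The longer form CTGATTGG, which overlaps ATTGG, stood in 3 of the 7 (*H2-Aa*, *H2-Eb1* and *H2-Oa*) and in 4.1% of promoters. The X1 letters stood in 4 of the 7 (*H2-Eb1*, *H2-DMb1*, *H2-Oa* and *H2-Ob*) and in 3.09% of promoters, and both X1 and ATTGG in the same 4 and in 1.42%. In *H2-Eb1* the X1 match lay at -92 to -82 and a Y box at -59 to -55, and in *H2-Ob* at -88 to -78 and -57 to -53. In *H2-Oa* the X1 match lay farther out, at -141 to -131. A match is a description of letters and no measurement of binding.

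Library totals ran from 13145876 to 18349425 counts. *Cdk8* itself was at 61.8 to 68.7 CPM (counts scaled to a common library size) in the 4 Cdk8fl/fl DMSO libraries and at 35.3 to 52.1 in the 4 Cdk8Δ/Δ Vav-Cre ones, lower in each of the latter but not absent (log2 fold change -0.55, standard error 0.14, edgeR adjusted p = 0.897). With Senexin B the genotypes overlapped for *Cdk8*. Its mean log2(CPM + 0.5) in Cdk8Δ/Δ Vav-Cre line 2 was 5.84, with a Senexin B minus DMSO difference of 0.24. Cdk8fl/fl lines 2, 3 and 4 had means of 5.89, 5.92 and 5.92, with differences of -0.13, -0.16 and -0.25. RNA counted over all exons does not measure protein. The study reports CDK8 protein as absent by immunoblot in BCR-ABL1p185+ Cdk8Δ/Δ Vav-Cre cells taken back from mice. It also shows CDK8 immunoblots of BCR-ABL1p185+ cell lines of both genotypes. The early B cell gene *Igll1*, a chain of the pre-B cell receptor, was between 624 and 1887 CPM in all 16 libraries. Some other early B cell genes were uneven between lines. *Kit* had no counts in Cdk8fl/fl lines 1 and 4 and in Cdk8Δ/Δ Vav-Cre line 4. As the mean log2(CPM + 0.5) of a line, *Dntt* ran from 0.48 (Cdk8fl/fl line 1) to 6.93 (Cdk8Δ/Δ Vav-Cre line 1). The macrophage marker *Adgre1* stayed at or under 0.0818 CPM, and of the dendritic cell markers *Itgax* stayed at or under 0.557 and *Clec9a* at or under 0.0770. Of 10 macrophage and monocyte markers 5, and of 11 dendritic cell markers 8, were under 1 CPM in every library. The summed level of the former list ran from 12.9 to 35.7 CPM in Cdk8fl/fl DMSO, from 12.5 to 61.7 with Senexin B, from 13.1 to 91.2 in Cdk8Δ/Δ Vav-Cre DMSO and from 13.5 to 112 with Senexin B. That of the latter stayed between 10.5 and 35.8 CPM in all 4 groups. Some markers of both lists were thus expressed. On the same log2 scale of line means, *Mrc1* of the macrophage and monocyte list reached 6.12 in Cdk8Δ/Δ Vav-Cre line 4. *Cd68* of that list was at 2.62 to 3.34 in every line, and *Bst2* of the dendritic cell list reached 4.84 in Cdk8fl/fl line 3. For T cell markers, *Cd3g* was at 0 in all 16 libraries and 5 of 7 were under 1 CPM throughout, while *Lck* made up most of the list's sum.

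Class II genes were transcribed at low and very unequal levels. As RPKM (CPM divided by the kilobases of exon, the scale used to set genes against each other), *Cd74* led with a median line of 32.9 and a range over the 8 lines from 11.2 to 62.7. *H2-Ob*, the β chain of H2-O, followed at a median of 16.5 RPKM (10.3 to 45.7). All other members had medians under 4 RPKM. *H2-Ab1* was at 3.51, *H2-Oa* at 3.28, *H2-DMa* at 2.59, *H2-DMb2* at 1.69 and *H2-DMb1* at 1.31. *H2-Aa*, the α chain that pairs with *H2-Ab1*, had a median of only 0.274 RPKM, *H2-Eb1* of 0.225 and *Ciita* of 0.0314.

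Neighbours in this order were compared line by line, as a description, since the same values set the order. *H2-DMa* was above *H2-DMb2* in 8 of 8 lines, at 1.01 against 0.946 RPKM in Cdk8fl/fl line 4, and both share part of their sequence with other genes. *H2-DMb1* was above *H2-Aa* in 8 of 8 lines. *Cd74* was above *H2-Ob*, and *H2-Ob* above *H2-Ab1*, in 7 of 8 lines each. The neighbours *H2-Ab1* and *H2-Oa*, *H2-Oa* and *H2-DMa*, *H2-DMb2* and *H2-DMb1*, and *H2-Aa* and *H2-Eb1* exchanged places in 3 to 5 lines, so their order lay within the spread between lines. *H2-Eb1* and *Ciita* were both at or near the floor of 3 counts in several libraries, and no order is read between them.

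**Figure D1:**
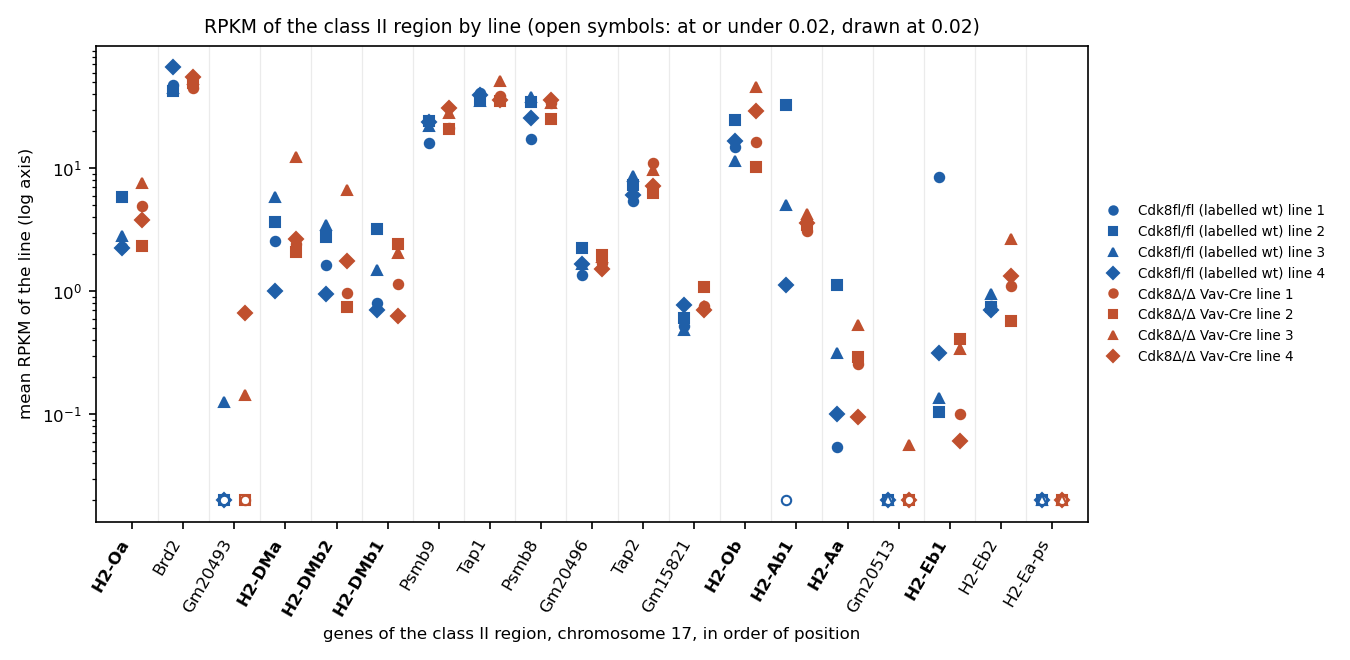
Mean RPKM of each line (log axis, mean of its DMSO and Senexin B library) for genes of the class II region on chromosome 17 in order of position, with class II presentation genes in bold, one symbol per line and one color per genotype. *Tap1* and *Brd2* lie close together for all lines, and *Psmb8* runs from 17.3 (Cdk8fl/fl line 1) to 38.0 RPKM (Cdk8fl/fl line 3). *H2-Ab1* runs from 0 (Cdk8fl/fl line 1) to 33.0 RPKM (Cdk8fl/fl line 2).

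*Ciita* (ENSMUSG00000022504, chromosome 16, 10488178 to 10527564, plus strand) was barely detected. In DMSO the Cdk8fl/fl lines 1 to 4 had 0, 0, 2 and 2 counts and the Cdk8Δ/Δ Vav-Cre lines 0, 7, 12 and 7. With Senexin B the counts were 4, 1, 1 and 3 in Cdk8fl/fl and 0, 3, 14 and 1 in Cdk8Δ/Δ Vav-Cre. The highest value was 0.850 CPM in Cdk8Δ/Δ Vav-Cre line 3 with Senexin B (95% Poisson interval 0.465 to 1.43, counting error only), and the groups overlapped. For the count of 0 in Cdk8Δ/Δ Vav-Cre line 1 with DMSO the upper Poisson limit is 0.230 CPM, and the floor of 3 counts lies at 0.187 CPM. *Ciita* did not pass the filter on low counts, and 111 of its exon bases also lie in *Dexi* on the other strand, which unstranded counting cannot separate.

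*Cd74* (ENSMUSG00000024610), the invariant chain, was detected in every library. In DMSO it was at 17.4, 88.0, 75.5 and 46.1 CPM in Cdk8fl/fl lines 1 to 4. In Cdk8Δ/Δ Vav-Cre lines 1 to 4 it was at 127.9, 28.7, 60.3 and 24.7 CPM. Lines of both genotypes stood at both ends of the range. With Senexin B the values were 28.7, 42.3, 53.4 and 10.8 CPM in Cdk8fl/fl and 48.9, 20.9, 73.7 and 6.90 in Cdk8Δ/Δ Vav-Cre.

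*H2-Ab1* (ENSMUSG00000073421, chromosome 17, 34263209 to 34269418, plus strand), the β chain of H2-A, divided the control lines. In DMSO the Cdk8fl/fl lines 1 to 4 had 0, 49.0, 10.0 and 1.40 CPM, and with Senexin B 0, 59.2, 6.42 and 2.31. Neither library of line 1 had a single *H2-Ab1* count, while line 2 had 778 and 723. Line 2 was 282-fold in DMSO and 274-fold with Senexin B above the floor of 3 counts in the line 1 library. The upper Poisson limits of line 1 lie above that floor, at 0.213 CPM in DMSO and 0.266 CPM with Senexin B. The Cdk8Δ/Δ Vav-Cre lines lay within a narrow band, at 5.68, 6.64, 6.35 and 5.15 CPM in DMSO and 4.54, 4.61, 7.53 and 6.55 with Senexin B. The cells are described as C57BL/6N throughout, and whether Cdk8fl/fl line 1 shares that background with the other lines was not tested. The value of a line recurred in its second library, and the Cdk8Δ/Δ Vav-Cre values fell inside the range of the controls.

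*H2-Eb1* (ENSMUSG00000060586, chromosome 17, 34305877 to 34316199, plus strand), the H2-E β chain, was high in a single line. Cdk8fl/fl line 1, the line without *H2-Ab1*, was at 12.1 CPM (210 counts) in DMSO and 7.99 CPM (111 counts) with Senexin B. No other library of the 8 lines exceeded 0.626 CPM or 10 counts, which makes line 1 in DMSO 19.4-fold higher than the next library. *H2-Ea-ps*, the pseudogene of its partner chain, had 0 counts in all 16 libraries. *H2-Eb2*, a neighbouring gene of the same family, was at 0.756 to 6.43 CPM.

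*H2-Aa* (ENSMUSG00000036594, chromosome 17, 34282744 to 34287827, minus strand), the H2-A α chain, had few counts in every library. Its counts in DMSO were 1, 18, 3 and 1 in Cdk8fl/fl lines 1 to 4 and 8, 12, 3 and 2 in Cdk8Δ/Δ Vav-Cre lines 1 to 4. With Senexin B they were 2, 38, 19 and 4 in Cdk8fl/fl and 8, 5, 30 and 3 in Cdk8Δ/Δ Vav-Cre. Cdk8fl/fl line 2, the highest for *H2-Ab1*, was also the highest for *H2-Aa*, at 1.13 and 3.11 CPM. Over the 8 line means the 2 chains of H2-A had a Pearson r of 0.878, or 0.637 without the 2 lines farthest from the median.

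**Figure D2:**
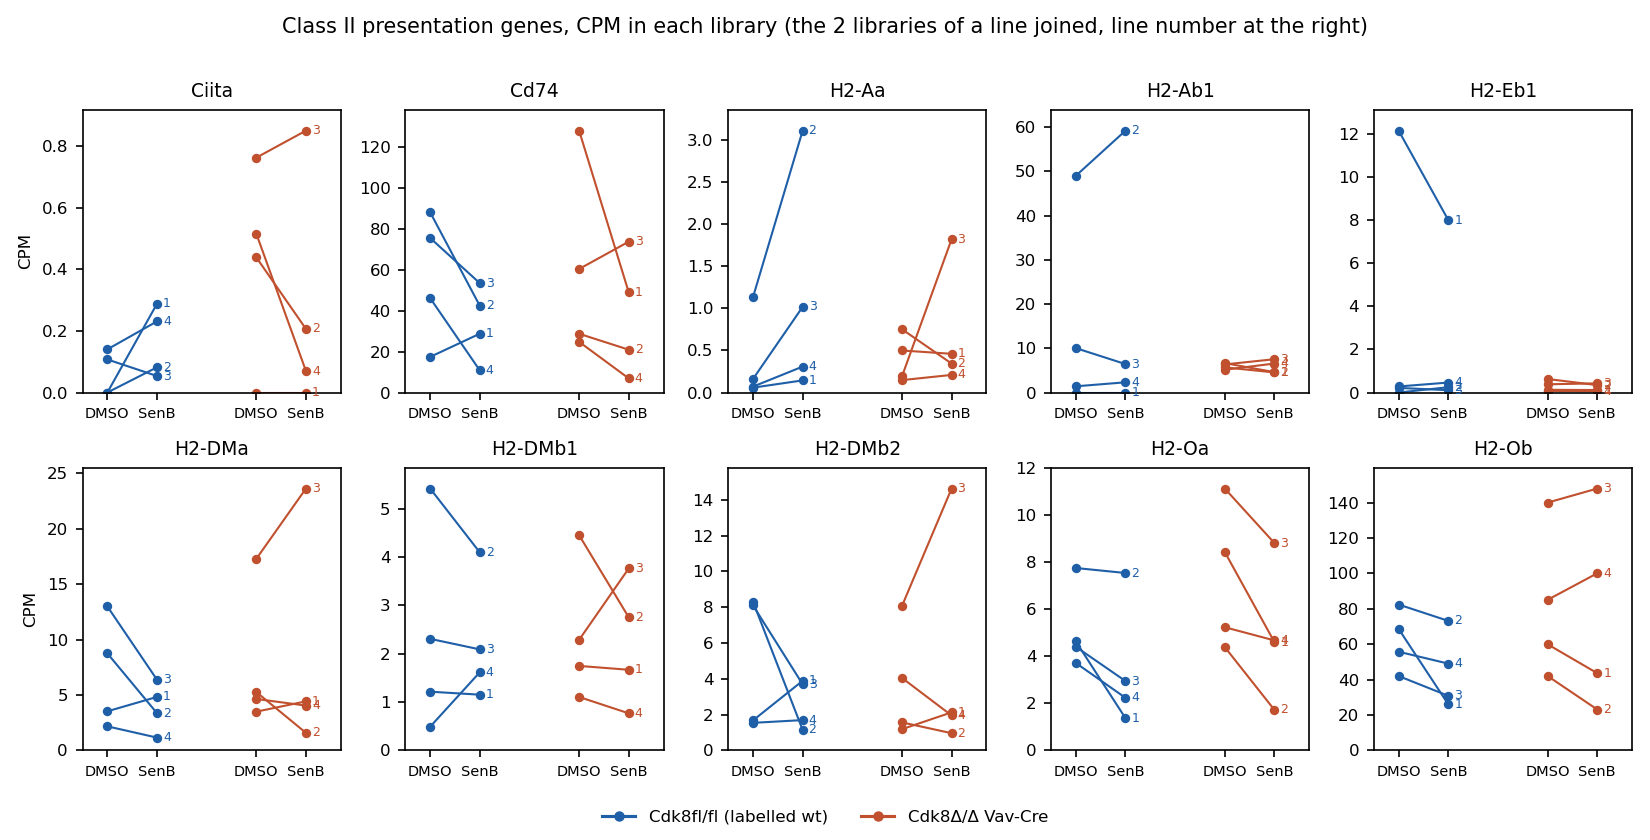
CPM of the 10 genes in each of the 16 libraries (y axis from 0, a separate scale per gene), DMSO and Senexin B (SenB) libraries of a line joined, with the line number at the right and genotype by color. The genotypes overlap in every panel, *H2-Ab1* and *H2-Eb1* are each led by a single Cdk8fl/fl line, and *H2-Oa* slopes down in 8 of 8 lines.

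The H2-DM genes encode the peptide exchanger, with *H2-DMa* for the α chain and *H2-DMb1* and *H2-DMb2* for alternative β chains. *H2-DMa* was at 3.53, 8.75, 12.98 and 2.17 CPM in Cdk8fl/fl lines 1 to 4 and 3.49, 5.26, 17.3 and 4.64 in Cdk8Δ/Δ Vav-Cre lines 1 to 4, in DMSO. With Senexin B the values were 4.82, 3.36, 6.37 and 1.15 CPM in Cdk8fl/fl and 4.43, 1.58, 23.6 and 4.04 in Cdk8Δ/Δ Vav-Cre. Cdk8Δ/Δ Vav-Cre line 3 was the highest library of its group under both treatments. *H2-DMb2* ran from 0.963 to 14.6 CPM and *H2-DMb1* from 0.490 to 5.41 CPM, and for *H2-DMb2* the highest library was again that of Cdk8Δ/Δ Vav-Cre line 3 with Senexin B. *H2-DMa* and *H2-DMb2* varied together over the 8 line means (r = 0.941, 0.947 without the 2 farthest lines), *H2-DMb1* and *H2-DMb2* less so (r = 0.266). Of the 50-base stretches of *H2-DMa*, 8.43% also occur in *Brd2*. The 2 β genes are near copies. Of all 50-base stretches of their transcripts, 22.7% of *H2-DMb1* and 25.9% of *H2-DMb2* also occur in another gene, mostly the other of the pair, so the division of reads between them is uncertain.

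H2-O, the inhibitor of H2-DM, had its β chain gene *H2-Ob* among the stronger class II genes. *H2-Ob* was at 68.6, 82.4, 42.0 and 55.7 CPM in Cdk8fl/fl lines 1 to 4 and 59.96, 42.0, 139.98 and 85.1 in Cdk8Δ/Δ Vav-Cre lines 1 to 4, in DMSO. *H2-Oa*, the α chain gene, was at 4.62, 7.74, 4.398 and 3.71 CPM in Cdk8fl/fl and 8.42, 4.39, 11.1 and 5.23 in Cdk8Δ/Δ Vav-Cre, in DMSO. Both were highest in Cdk8Δ/Δ Vav-Cre line 3, and their line means had an r of 0.820 (0.556 without the 2 farthest lines). With Senexin B *H2-Oa* was at 1.37, 7.53, 2.94 and 2.23 CPM in Cdk8fl/fl and 1.72 to 8.80 in Cdk8Δ/Δ Vav-Cre. The gene BC051537 overlaps 200 exon bases of *H2-Oa* on the other strand, and 15.5% of the 50-base stretches of *H2-Oa* recur in it. The correlations over line means are descriptions on 8 points, each the mean of the same 2 libraries for every gene.

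The spread between lines was large for most of the 10 genes. As a measure, the standard deviation of the line means on the log2(CPM + 0.5) scale was taken within each genotype, so that a genotype difference does not enter. It was 2.03 for *H2-Ab1*, larger than in all but 1.48% of the 14164 genes that passed the count filter over the 4 groups. *H2-DMa* had 1.05, *Cd74* 1.04 and *H2-DMb2* 0.97, which 8.37%, 8.61% and 9.67% of genes exceeded. The median of all genes was 0.31, and all 8 class II genes that passed the filter were above it. The genes were not matched for level, and counting error adds to the spread of genes with few counts, such as *H2-Aa*. *H2-Eb1*, which did not pass, had 1.41, and *Ciita*, also below the filter, 0.41.

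**Figure D3:**
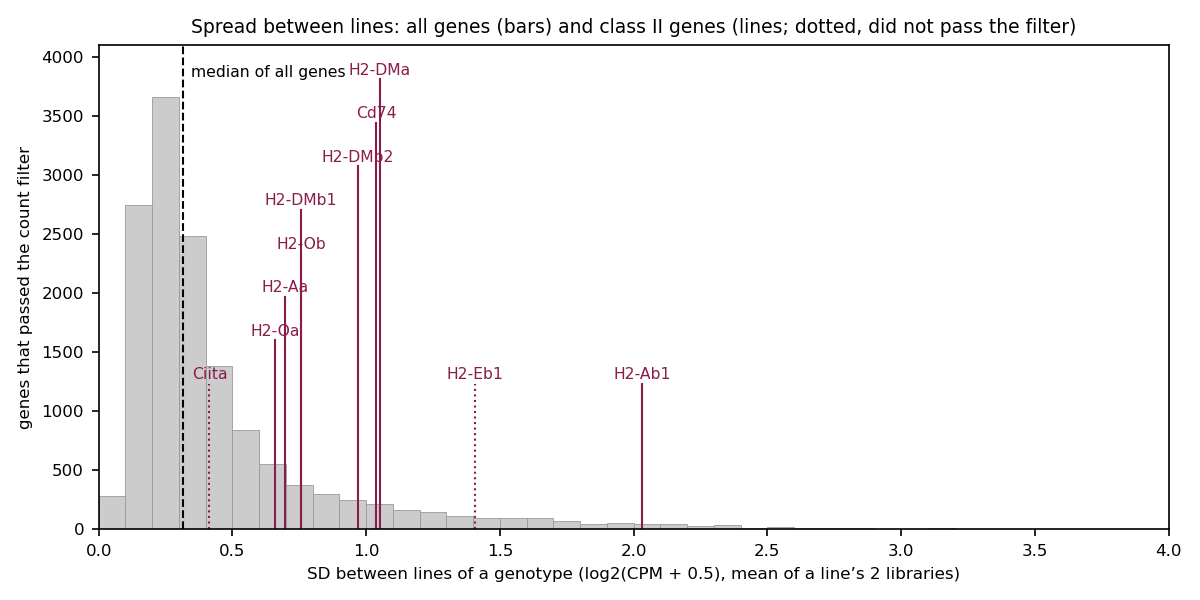
Standard deviation between lines of a genotype (x axis, log2(CPM + 0.5)) of all 14164 genes that passed the count filter (bars, number of genes per bin of 0.1) and of the 10 class II genes (vertical lines, whose height has no meaning). The dashed line marks the median of all genes at 0.31, and *H2-Ab1* at 2.03 lies farthest from it among the 10.

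To ask whether loss of CDK8 changed class II expression, the Cdk8Δ/Δ Vav-Cre and Cdk8fl/fl lines were compared in DMSO with edgeR's quasi-likelihood test over all genes. None of the 10 genes was called at an adjusted p under 0.05 and a fold over 2, and 0.00759% of the 13174 genes tested were. The values of the 2 genotypes overlapped for all 10 genes, whereas they did not overlap for 3.06% of genes. The 7 members that passed the filter had log2 fold changes between -1.34 and 0.51 with a median of 0.09 (0.0017 for all genes), and none had an unadjusted p under 0.05, against 5.32% of genes.

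*Cd74* differed by 0.09 (standard error 0.63, edgeR adjusted p = 0.99), and its sign turned without Cdk8fl/fl line 1, Cdk8fl/fl line 4 or Cdk8Δ/Δ Vav-Cre line 1 (-0.21, -0.0045 and -0.58). *H2-Ab1* differed by -1.34 (standard error 1.36, edgeR adjusted p = 0.925), and by 0.62 without Cdk8fl/fl line 2. *H2-Oa* was 0.51 higher in Cdk8Δ/Δ Vav-Cre (standard error 0.38, edgeR adjusted p = 0.913) and *H2-Ob* 0.40 higher (standard error 0.37, edgeR adjusted p = 0.916), neither beyond the spread between lines. The standard errors of the 7 genes ran from 0.37 to 1.36 on the log2 scale.

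The 3 genes below the filter were fitted without it. *Ciita* was 2.65 higher in Cdk8Δ/Δ Vav-Cre on the log2 scale (standard error 1.10, edgeR unadjusted p = 0.0331, adjusted p = 0.745), from 26 counts in the 4 Cdk8Δ/Δ Vav-Cre DMSO libraries against 4 in the Cdk8fl/fl ones. *H2-Eb1* had -3.33 (edgeR adjusted p = 0.745), where 210 of the 218 counts of the control group came from line 1. *H2-Aa* had 0.15 (standard error 0.91, edgeR adjusted p = 0.993).

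The genotypes were also compared among the Senexin B libraries. No member was called among 13010 genes tested (0% called in all), the log2 fold changes of the 7 members tested ran from -1.55 to 1.10, and the adjusted p of each was 0.9997. At an unadjusted p under 0.05 stood 1.55% of genes, and DESeq2 called 10. The values of the genotypes again overlapped for all 10 genes, against 1.05% of genes without overlap.

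To ask what kinase inhibition did, the Senexin B and DMSO libraries of each line were compared over all 8 lines, with the line as a block. No class II gene was called, against 0.946% of 14164 genes (81 higher, 53 lower). Of the 8 members tested, 6 had a lower fitted value with Senexin B, with a median log2 fold change of -0.35 (-0.0048 for all genes). An unadjusted p under 0.05 was reached by 3 members that were lower, against 8.61% of all genes, and by 1 that was higher, against 7.79%.

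*H2-Oa* came nearest to the limit. It was lower with Senexin B in 8 of 8 lines, as were 2.59% of genes, by -0.04 (Cdk8fl/fl line 2) to -1.46 (Cdk8fl/fl line 1) on the log2 scale. Its fitted log2 fold change was -0.68 (standard error 0.19, edgeR adjusted p = 0.086). Without the filter on low counts the adjusted p was 0.0158, and in DESeq2 it was 0.0234, both with a change under 2-fold.

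*Cd74* was lower in 6 of 8 lines, at a fitted log2 fold change of -0.78 (standard error 0.29, edgeR adjusted p = 0.211). The lines differed widely. The log2 difference was -2.05 in Cdk8fl/fl line 4, -1.77 in Cdk8Δ/Δ Vav-Cre line 4 and -1.38 in Cdk8Δ/Δ Vav-Cre line 1, whereas it was 0.71 in Cdk8fl/fl line 1 and 0.29 in Cdk8Δ/Δ Vav-Cre line 3. DESeq2 gave an adjusted p of 0.0444 for the same gene, again under 2-fold. *H2-Ob* was lower in 6 of 8 lines (log2 fold change -0.39, standard error 0.16, edgeR adjusted p = 0.234).

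For the α and β chains of H2-A the fitted values lay apart, without a test of their difference. *H2-Aa* was at 1.20 (standard error 0.45, edgeR adjusted p = 0.197), from counts of 1 to 38 per library. *H2-Ab1* had -0.02 (standard error 0.17, edgeR adjusted p = 0.974), and was higher in 4 lines, lower in 3 and at 0 counts under both treatments in Cdk8fl/fl line 1. *H2-DMa* was at -0.45 (standard error 0.26), *H2-DMb2* at -0.30 (standard error 0.41) and *H2-DMb1* at 0.0016 (standard error 0.21), with edgeR adjusted p-values of 0.432, 0.781 and 0.998. Without the filter, *H2-Eb1* was at -0.19 and *Ciita* at -0.10, the latter with an edgeR adjusted p of 0.993.

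**Figure D4:**
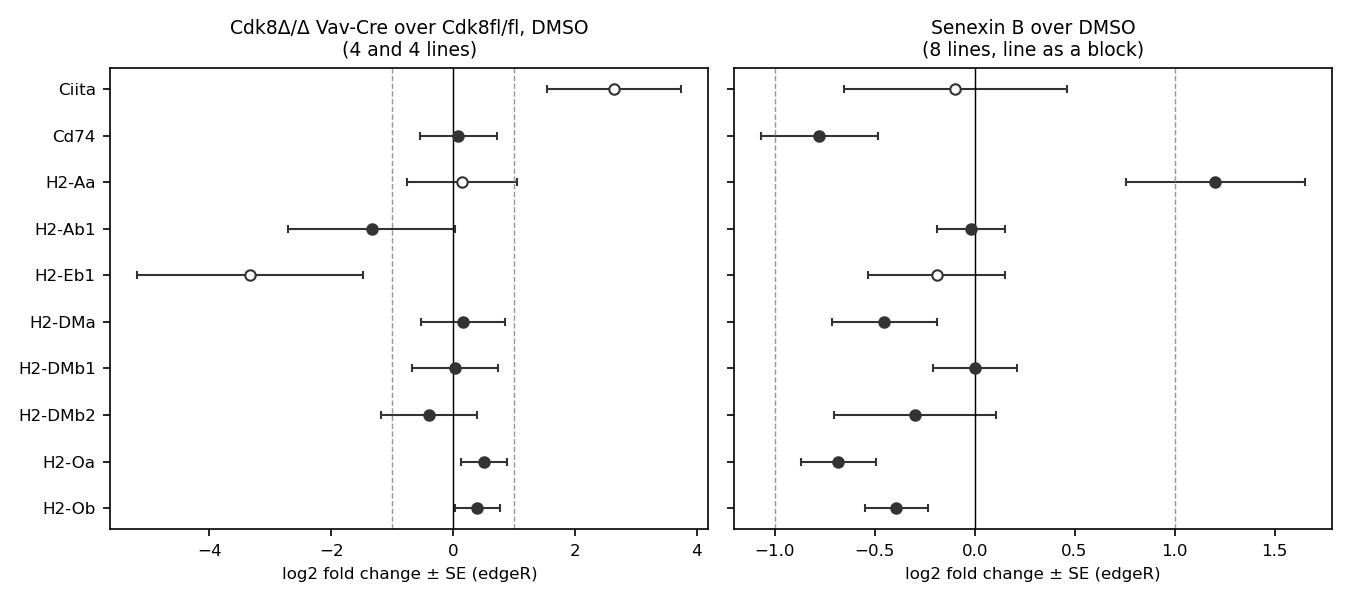
Log2 fold changes of the 10 genes (points) with standard errors (bars) from edgeR, for genotype in DMSO (left, 4 against 4 lines) and for Senexin B over DMSO (right, 8 lines), on separate x scales with dashed lines at 2-fold. Open points are genes below the count filter, fitted without it, and no gene passed the limits in either comparison, with *H2-Oa* at -0.68 and *Cd74* at -0.78 on the right.

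Within each genotype, the 7 members tested had Senexin B log2 fold changes from -0.89 to 0.17 in the Cdk8fl/fl lines and from -0.68 to 0.41 in the Cdk8Δ/Δ Vav-Cre lines, without the line as a block. None was called in either, and neither was any other gene (0% of 12989 and 0% of 13285), although 3.80% and 1.83% of genes had an unadjusted p under 0.05. With the line as a block 0.346% and 0.0527% of genes were called, still without a class II gene, and the members then ran from -0.72 to 0.14 and from -0.81 to 0.09. DESeq2 without the block called 19 and 0 genes. The smallest blocked adjusted p of a member was 0.453 and 0.395. Whether the Senexin B change differed between genotypes was tested as an interaction over all 16 libraries, without the line as a block. No gene was called (0% of 14164), with 0.473% at an unadjusted p under 0.05, and the members ran from -0.84 to 1.31 with adjusted p-values of 0.9998, and DESeq2 called none either. With the block no gene was called, 459 genes had an unadjusted p under 0.05, and the members ran from -1.16 to 0.74, with *H2-DMb2* at 0.74 in place of 1.31.

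The proteins that work with the class II genes were looked at in lists taken from pathway knowledge. The factors of the X and Y boxes (*Rfx5*, *Rfxap*, *Rfxank*, *Nfya*, *Nfyb*, *Nfyc* and *Creb1*) were all expressed, at a summed level of 381 to 478 CPM, far more evenly than the class II genes. None of the 7 was called for Senexin B or genotype, and the smallest p was that of *Nfya* (-0.21 with Senexin B, edgeR adjusted p = 0.31). Among 13 regulators of *Ciita*, including the B cell factors *Pax5* (786 to 1616 CPM), *Ebf1* (695 to 1286 CPM) and *Irf8* (246 to 509 CPM), none was called. *Ifngr2*, a chain of the interferon-γ receptor, was higher with Senexin B in 8 of 8 lines by 0.49 (standard error 0.12, edgeR adjusted p = 0.0458), under 2-fold.

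Among the 8 endosomal enzymes and inhibitors of the loading list, *Ctss* stood out. It encodes cathepsin S, the protease that makes the last cuts in the invariant chain in B cells. In DMSO *Ctss* was at 48.6, 36.0, 40.6 and 50.6 CPM in Cdk8fl/fl lines 1 to 4 and at 62.6, 39.1, 50.4 and 36.5 in Cdk8Δ/Δ Vav-Cre lines 1 to 4. With Senexin B it was at 25.2, 12.6, 24.1 and 25.7 CPM in Cdk8fl/fl and at 40.6, 17.3, 20.8 and 24.5 in Cdk8Δ/Δ Vav-Cre. It fell in 8 of 8 lines, by a fitted log2 fold change of -0.98 (standard error 0.11, edgeR adjusted p = 0.00158), just under the 2-fold limit. *Ctsh*, cathepsin H, was at -1.12 (standard error 0.33, edgeR adjusted p = 0.103). No gene of the list was called, 6 of 8 had negative values, and the median was -0.25.

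Of the trafficking list 6 of 9 genes were tested and none was called, with *Sppl2a*, the protease that clears the invariant chain stub, at -0.21 (edgeR adjusted p = 0.203) and *March8*, a class II ubiquitin ligase, at -0.41 (edgeR adjusted p = 0.251). Of the costimulation list 5 of 6 were tested and none was called, with *Cd274*, the ligand of PD-1, at -0.65 (edgeR adjusted p = 0.0987) and *Pdcd1lg2* at -0.88 (edgeR adjusted p = 0.166). The class I list held 6 genes of the same chromosome region, all tested, and none was called, with *Tap1* at 0.24 and *Tap2* at -0.29. Of these, *Brd2* only lies in the region, and the others serve the other class of MHC molecule. *H2-Eb2*, outside the 10 genes, was at -0.46 (edgeR adjusted p = 0.32).

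The interferon-γ induced list had calls. Of its 9 genes tested 2 fell past the limits and none rose, and 6 were lower at an unadjusted p under 0.05, with a median of -0.39, whereas over all 14164 genes 53 fell past the limits and 8.61% were lower at that p. *Gbp2*, a guanylate-binding protein, fell in 8 of 8 lines (-1.51, standard error 0.23, edgeR adjusted p = 0.0089). *Iigp1*, an immunity-related GTPase, fell in 8 of 8 lines (-1.70, standard error 0.33, edgeR adjusted p = 0.0189), at 0 to 8.90 CPM. *Gbp4* was called in the Cdk8fl/fl lines alone with the line as a block (-1.39, edgeR adjusted p = 0.0192).

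Cell type markers were called singly, beside 0.946% of all genes called, 1.96% higher in all 8 lines and 2.59% lower in all 8. Of 7 later B cell markers tested, *Ccr7*, a homing receptor, rose in 8 of 8 lines (1.86, standard error 0.22, edgeR adjusted p = 0.00273) and no other was called. Of 5 macrophage and monocyte markers tested, *Ccr2* rose (1.83, edgeR adjusted p = 0.0209, higher in 7 of 8 lines). Of 3 dendritic cell markers tested, *Flt3*, which early B progenitors also carry, fell (-1.63, edgeR adjusted p = 0.0399, lower in 7 of 8 lines), while *Bst2* was at 0.53 (edgeR adjusted p = 0.0282), under 2-fold. Of the pro-B and pre-B list all 14 were tested and none was called, with *Cd79b* at -0.38 (edgeR adjusted p = 0.0308, lower in 8 of 8 lines). For genotype in DMSO none of these lists had a call, and the smallest p belonged to *Rag1* (3.51, standard error 0.70, edgeR adjusted p = 0.897) and *Rag2* (3.60), the recombinase of early B cells. Both were higher in Cdk8Δ/Δ Vav-Cre, whereas the study's pathway analysis names them among genes downregulated in these lines. The reason for the opposite direction was not tested. Outside the markers the smallest p of each list for genotype was that of *Nfya* (-0.27), *Ifngr1* (-0.39), *Ctsb* (-0.55), *Cd82* (-1.04), *Cd86* (-2.001), *Psmb9* (0.39) and *Irgm1* (0.23), with edgeR adjusted p-values from 0.897 to 0.908. Of the 7 T cell markers *Lck* alone was tested (0.28 with Senexin B, edgeR adjusted p = 0.739). What part the marker genes have in the class II values was not tested.

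**Figure D5:**
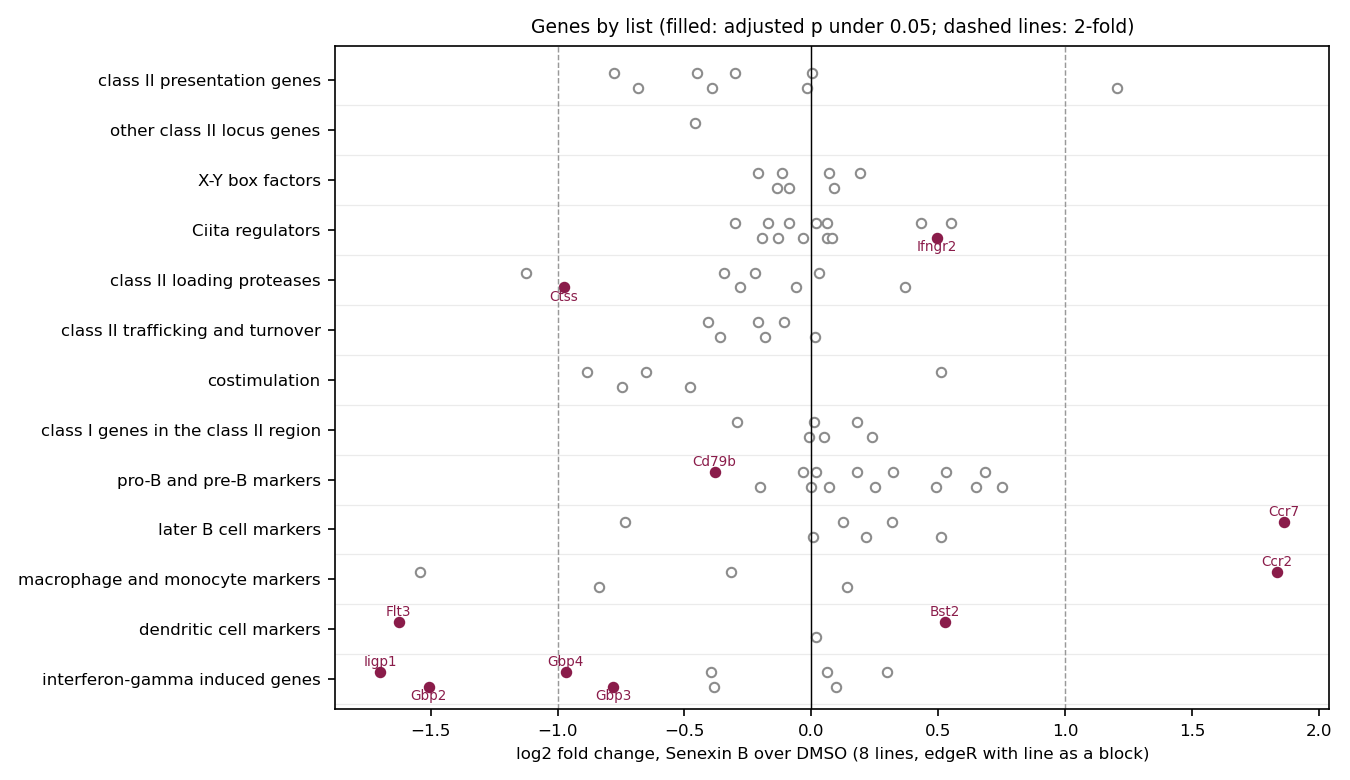
Log2 fold change with Senexin B over all 8 lines (x axis) of each gene tested, by list (rows, vertical offset only to separate points), with dashed lines at 2-fold and filled, named points at an adjusted p under 0.05, a choice of names made after the values were seen. No class II presentation gene is filled, whereas *Ctss* lies at -0.98 and *Gbp2* at -1.51.

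Genes were ranked by the Pearson r with the mean log2 CPM of 4 of the 10 genes (*Cd74*, *H2-Aa*, *H2-Ab1* and *H2-Eb1*) over the 8 line means. *H2-Eb1*, high in Cdk8fl/fl line 1 alone, did not follow the other 3. Its r was -0.783 with *H2-Ab1*, -0.456 with *H2-Aa* and -0.312 with *Cd74*. Without the 2 lines farthest from the median of the other gene, these were -0.276, 0.374 and -0.560. The mean of the 4 therefore does not stand for the class II genes as a whole. The leading genes were *Upk1b* (r = 0.978), *Abhd14a* (0.972), *Dlx2* (0.962), *Tpra1* (0.959) and *Mboat7* (0.958). These are the highest values among all genes that passed the filter, over 8 points, and are given as a description.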

How the data were processed

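RNA of 16 libraries was sequenced with the Lexogen SENSE mRNA-Seq kit as single-end reads. The deposited files hold raw counts per gene: the authors trimmed reads (Trimmomatic), aligned them with STAR and counted them with featureCounts 1.5.1 against a GENCODE annotation of GRCm38, without strand, so that genes overlapping on opposite strands share reads. Reads without molecular identifiers are not independent molecules, so that counting intervals (95%, Poisson) and the floor of 3 counts cover counting error only.

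Counts were scaled by TMM to CPM over the 16 libraries, and log2 values used a pseudocount of 0.5. RPKM divides CPM by the union of exons. Differences were tested with edgeR 4.0.16 (R 4.3.3, quasi-likelihood, filterByExpr) over all genes, adjusted after Benjamini-Hochberg, with a limit of 0.05 and a fold over 2. Line numbers are the replicate numbers of the labels. Within a genotype same-numbered libraries deviated together (correlations 0.572 to 0.783 in Cdk8fl/fl and 0.771 to 0.872 in Cdk8Δ/Δ Vav-Cre), so they were paired as lines, whereas across genotypes same-numbered libraries ran from -0.151 to 0.261 in DMSO and from -0.139 to 0.424 with Senexin B, not all above 0.1. The study calls the 4 Cdk8Δ/Δ Vav-Cre lines individually derived, but no label says whether lines came from separate mice. The p-values for genotype therefore measure the spread between these lines. Those for Senexin B with the line as a block measure how the difference within a line varied between these lines. Alternatives were the block, RLE scaling, no filter, DESeq2 1.42.0, summed libraries and leaving out libraries. The members and lists were chosen with earlier results of these data known. Named were the 10 genes, list genes that were called, and otherwise the leading genes by p in each list, plus the 5 genes closest to the mean of 4 members across lines. Other genes named were chosen after their values were seen.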

Additional observations from a re-analysis of the deposited data

Results flagged for a closer look

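In 8 of the 40 groups of 4 libraries (10 genes in 4 groups) the highest library lay far from the other 3 by Dixon's criterion. The criterion is made for normally distributed values and was applied to CPM without logs, some of them near the floor. How often other genes meet it was not counted, so no rate by chance is given. *H2-Eb1* was high in Cdk8fl/fl line 1 under both treatments, at 12.1 CPM in DMSO and 7.99 CPM with Senexin B. *H2-Ab1* was high in Cdk8fl/fl line 2 with Senexin B, at 59.2 CPM, and *H2-Aa* in the same line with DMSO, at 1.13 CPM. The remaining 4 were libraries of Cdk8Δ/Δ Vav-Cre line 3. *H2-DMa* was at 17.3 CPM there in DMSO and at 23.6 CPM with Senexin B, *H2-DMb2* at 14.6 CPM with Senexin B and *H2-Aa* at 1.82 CPM with Senexin B. The groups of a line are not independent, since its 2 libraries come from the same cells.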

How the results depend on the processing

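No class II gene was called under any alternative. Genes called in all for genotype in DMSO were 1, against 0 with the replicate block, 32 in DESeq2 and 0 to 0 leaving out 1 library. For genotype with Senexin B they were 0, against 1 without the filter, 10 in DESeq2 and 1 with the 2 libraries of each line summed. For Senexin B in Cdk8fl/fl lines they were 0, against 45 with the replicate block, 3 without the filter, 19 in DESeq2 and 180 in DESeq2 with the block. In Cdk8Δ/Δ Vav-Cre lines they were 0, against 7 with the replicate block and 77 in DESeq2 with the block. Over all 8 lines they were 134, against 373 without the fold limit, 0 without the replicate block, and 80 to 185 leaving out libraries or whole lines (80 without Cdk8fl/fl line 3, 88 without Cdk8fl/fl line 4). DESeq2 with the block and the removal of whole lines were chosen after seeing the data. The causes were not tested.

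For genotype, the sign turned for *Cd74* (-0.14) and *H2-Ab1* (0.67) with the replicate block, whose numbers pair no lines across genotypes, and for *H2-Aa* (-0.34) and *H2-DMb2* (0.17) with summed libraries. Leaving out 1 library gave -0.58 to 0.37 for *Cd74*, -1.75 to 0.62 for *H2-Ab1*, -0.62 to 0.67 for *H2-DMa* and -0.46 to 0.82 for *H2-DMb1*. For Senexin B over 8 lines, it turned for *Ciita* in DESeq2 (0.11), *H2-Ab1* without the replicate block (0.066), and *H2-DMb1* without the block (-0.089) or the filter (-0.00056). Leaving out libraries gave -0.10 to 0.10 for *H2-Ab1*, -0.16 to 0.12 for *H2-DMb1* and -0.53 to 0.033 for *H2-DMb2*, while *H2-Oa* stayed at -0.78 to -0.55 and *Cd74* at -0.98 to -0.59. Low counts limit *Ciita*, *H2-Eb1* and *H2-Aa*.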

Other observations

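The absence of *H2-Ab1* and the presence of *H2-Eb1* in Cdk8fl/fl line 1 were set against all genes, with limits chosen after the values were seen. Under 0.2 CPM in both libraries of a line and over 1 CPM in all other libraries were 3 genes in Cdk8fl/fl line 1, *H2-Ab1* among them, and 0 to 9 genes in each of the other 7 lines. Over 5 CPM in both libraries of a line and under 1 CPM elsewhere were 2 genes in Cdk8fl/fl line 1, *H2-Eb1* among them, and 0 to 7 in the others. The class I heavy chains *H2-K1* (373 to 890 CPM) and *H2-D1* (278 to 513 CPM) were detected in all 16 libraries.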
